A study of Homo sapiens with 12 samples.

Results

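The S100 proteins described here are 10 members of a family of small calcium-binding proteins, taken as every probe set annotated to S100A2, S100A3, S100A4, S100A6, S100A10, S100A11, S100A13, S100A14, S100A16 or S100P. They are 10 of 19775 genes with a probe set on the array and are read by 13 of its 54675 probe sets. HK-2 is an established line of human proximal tubule cells, immortalised with papillomavirus oncogenes, and all groups come from this 1 line. The 4 groups, of 3 arrays each, were a low dose of Nnm for 48 h, the same dose for 24 h, and vehicle for 48 h and for 24 h as the controls of the same times. Neither the amount that the low dose stands for nor the identity of the vehicle is given in the sources used here, and the name Nnm is used as the labels give it. All cells were grown in a serum-free medium with growth factor, insulin and hydrocortisone, and the 3 replicates of a group are labelled as biological. The study asked how nephrotoxic compounds change gene expression in these cells.

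S100 proteins carry a pair of EF-hand loops, form dimers, and on binding calcium open a surface that takes hold of a partner protein such as an annexin, a cytoskeletal protein or p53. Some members also act outside the cell through receptors such as RAGE. Most human S100 genes lie together in the epidermal differentiation region of chromosome 1, whereas S100P lies on chromosome 4. In kidney and other tissues, several members are known as markers of particular cell states: S100A4, for example, is also called fibroblast-specific protein and is used as a marker of fibroblasts and of epithelial cells that lose epithelial traits.

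Of the 10 genes, 8 were above the floor for detection, a log2 value of 4 on at least 3 arrays, and were tested together with all other genes above it, 10907 in all. S100A14, an epithelial member, ranged over all 12 arrays between 2.35 and 2.91, and S100P, first found in placenta, between 2.41 and 2.43. Both stayed below the floor on every array, so they were not tested. The values are log2 expression after background correction and scaling by the authors, and since probe sets differ in brightness, the level of one gene is not set against that of another.

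The arrays matched their cell type label in part. All 4 of the epithelial markers KRT8, KRT18, EPCAM and CDH1 were above the floor, as were DPP4 and PAX8 among 10 proximal tubule markers on the array, whereas LRP2, CUBN, AQP1, GGT1, ANPEP, SLC34A1, SLC5A2 and SLC22A6 were below it. Of the proximal tubule markers DPP4 was called at 48 h and both DPP4 and PAX8 at 24 h, and the log2 of their summed level was 13.27 to 13.47 in Nnm cells, against 12.35 to 12.48 in control cells, at 48 h. Above the floor were also 2 of 6 distal nephron markers (SLC12A1 and SCNN1A), of which SCNN1A was called at both times, 1 of 6 squamous markers (SPRR1A), 1 of 4 endothelial markers (PECAM1) and 0 of 5 leukocyte markers. The log2 of the summed level of the distal nephron markers was 9.62 to 10.3 in Nnm cells, against 9.15 to 9.50 in control cells, at 48 h, and 9.63 to 9.68 in Nnm cells, against 8.84 to 9.02 in control cells, at 24 h. The part of these markers in the results below was not tested. On the first principal component over all tested genes, the 2 Nnm arrays of replicate 2 lay between the other 4 Nnm arrays and the 6 control arrays (-3.28 to -1.55, against -43.2 to -31.2 and 18.6 to 34.4). On all 4 arrays of replicate 2 the 5′ probe set of ACTB was further below the 3′ one (log2 difference -1.17 to -1.09) than on the other 8 arrays (-0.863 to -0.736). Results are therefore also given without the Nnm arrays of replicate 2. The control arrays of replicate 2, which share the ACTB difference, were kept. The arrays left out were the Nnm arrays nearest to the controls on that component. Without them the share of all tested genes called was 28.9% in place of 13.8% at 48 h, and 34% in place of 19.4% at 24 h. A stronger change without them is therefore no check of array quality. In bulk samples such as these, fewer cells of a type and less RNA per cell cannot be told apart.

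**Figure D1:**
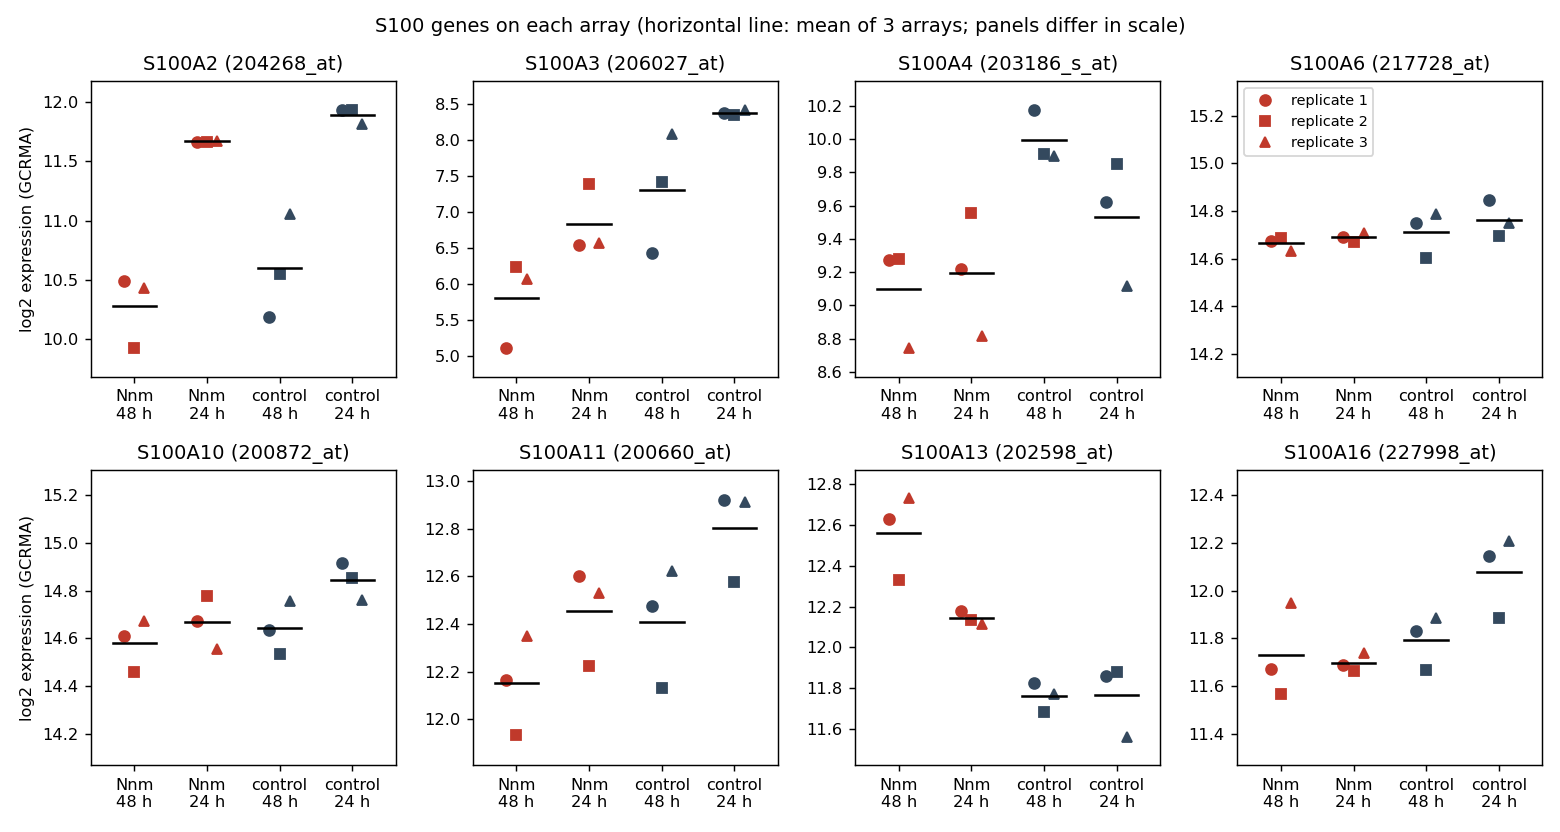
Log2 expression (y axis, GCRMA values) of the 8 tested S100 genes on each of the 12 arrays, by group (x axis: Nnm 48 h, Nnm 24 h, control 48 h, control 24 h), with a symbol for each replicate number and a line at the mean of 3 arrays. The y axes differ between panels, and a reader should see S100A3 lower and S100A13 higher in the Nnm groups, and S100A2 lower at 48 h in both treatments.

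S100A3, S100A4 and S100A13 differed between Nnm and control cells. At 48 h, S100A13 rose and S100A3 and S100A4 fell, which is 3 of 8 tested members at an adjusted p under 0.05, beside 13.8% of all tested genes (8.45% rose and 5.34% fell). At 24 h, S100A3 alone among the members passed, having fallen, which is 1 of 8 beside 19.4% of all genes (8.85% fell). For the mean of both times, S100A13 again rose and S100A3 and S100A4 fell, beside 37.3% of all genes (20.4% rose and 16.9% fell), so the share of members called at 24 h and over both times is near the background or equal to it. The median change of the 8 members, Nnm over control, was -0.16 at 48 h, beside 0.02 for all tested genes, and -0.28 at 24 h, beside 0.01. Of the 8 changes, 7 were below 0 at each time, and of these 2 passed at 48 h and 1 at 24 h. The share of all tested genes below 0 is not given here. These counts come from a fit without the replicate numbers. With the replicate number as a block, S100A11 passed as well at 48 h, beside 32.2% of all tested genes. At 24 h S100A11, S100A13 and S100A16 passed as well, beside 38.8%. For the mean of both times S100A11 and S100A16 did, beside 52.6%. The adjusted p is that of limma after Benjamini-Hochberg adjustment across the 10907 genes, and every fold change below is of these values.

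**Figure D2:**
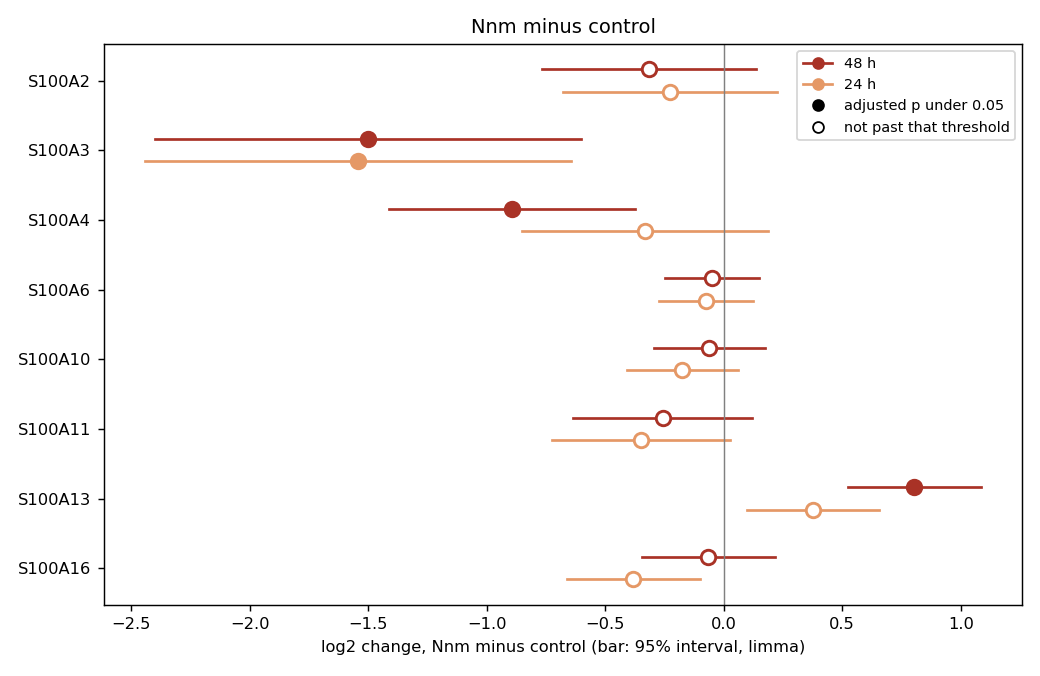
Change in log2 expression, Nnm minus control (x axis), of each tested S100 gene (rows) at 48 h and 24 h. Points are limma's estimates over 3 against 3 arrays, bars are 95% intervals, and filled points passed an adjusted p of 0.05: S100A3 lies at -1.50 and -1.54, S100A4 at -0.89 at 48 h and S100A13 at 0.80 at 48 h.

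S100A3, a cysteine-rich member that binds zinc as well as calcium and is best known from the hair cuticle, showed the largest change with Nnm among the 8. At 48 h its log2 level was 5.11, 6.23 and 6.07 in Nnm cells (replicates 1, 2 and 3), against 6.43, 7.41 and 8.08 in control cells. At 24 h it was 6.54, 7.39 and 6.57 in Nnm cells, against 8.37, 8.34 and 8.42 in control cells. All Nnm values lay below all control values at each time, where 36.1% of all tested genes had no overlap in either direction at 48 h and 39.8% at 24 h, and the Nnm array was below the control array of the same number in 6 of 6 pairs, by 0.95 to 2.01 on the log2 scale. The group means were 5.80 ± 0.61 in Nnm and 7.31 ± 0.83 in control cells at 48 h, and 6.83 ± 0.48 in Nnm and 8.37 ± 0.04 in control cells at 24 h (SD, n = 3 each). This is a log2 change of -1.50 at 48 h (SE 0.41, limma adjusted p = 0.0361), or 2.83-fold lower. At 24 h the log2 change was -1.54 (SE 0.41, limma adjusted p = 0.0269), or 2.91-fold lower. The difference between these changes was 0.04 (95% interval -1.23 to 1.31), so a difference of over 1 log2 unit either way was not resolved.

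The S100A3 calls at single times depended on some of the arrays. Leaving out any 1 array at a time, the change at 24 h kept an adjusted p under 0.05 in 7 of 12 cases. It lost the call without Nnm 24 h replicate 1 or 3 or without any 1 of the 24 h controls (adjusted p = 0.0541 to 0.0955). At 48 h it kept the call in 5 of 12 cases, and lost it without Nnm 48 h replicate 1 or 3, control 48 h replicate 2 or 3, or any 1 of the 24 h controls (0.0506 to 0.136). It also lost the 48 h call when the 48 h groups were fitted alone (limma adjusted p = 0.0963). The mean of both times, -1.52 (SE 0.29, limma adjusted p = 0.00321), passed in 12 of 12 cases. Replicate 2 of the Nnm arrays was the highest of its group at both times, and without both of its arrays the change was -1.72 at 48 h (adjusted p = 0.0162) and -1.82 at 24 h (0.0106). Without them, 28.9% of all tested genes passed at 48 h and 34% at 24 h.

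S100A4, which binds nonmuscle myosin and is known for its part in cell motility, was read by 1 probe set, of a type that can match more than 1 transcript, and its specificity was not checked. It was 9.27, 9.28 and 8.74 in Nnm cells at 48 h, against 10.18, 9.91 and 9.90 in control cells, with no overlap, beside 36.1% of all tested genes. At 24 h it was 9.22, 9.55 and 8.82 in Nnm cells, against 9.62, 9.85 and 9.12 in control cells. The 24 h groups overlapped, although the Nnm array was the lower of its numbered pair in 3 of 3 pairs (by 0.30 to 0.40 on the log2 scale). At 48 h the means were 9.10 ± 0.31 in Nnm and 9.99 ± 0.16 in control cells (SD, n = 3 each), a log2 change of -0.89 (SE 0.23, limma adjusted p = 0.0328), or 1.86-fold lower. At 24 h the change of -0.33 did not pass (adjusted p = 0.332), and it did pass with arrays weighted by their quality (-0.63, adjusted p = 0.0215, with a range of 0.0215 to 0.734 over the alternatives). With 1 array left out it ran between -0.54 and -0.14. The difference of the changes at 48 h and at 24 h, -0.56, did not pass (adjusted p = 0.819). The mean of both times was -0.61 (SE 0.17, limma adjusted p = 0.0157), and it kept its call in 12 of 12 cases with 1 array left out. The call at 48 h was lost without Nnm 48 h replicate 1 or 3 or any 1 of the 48 h controls (adjusted p = 0.0644 to 0.115), and without both Nnm arrays of replicate 2 the change was -0.98 (0.0163).

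Of 7 fibroblast markers, COL1A1, DCN and LUM were above the floor, and COL1A2, COL3A1, PDGFRA and PDGFRB were below it on the arrays. The log2 of the summed level of the 7 was 12.38 to 12.55 in Nnm cells and 12.19 to 12.31 in control cells at 48 h. At 24 h it was 12.10 to 12.77 in Nnm cells and 12.28 to 12.77 in control cells. COL1A1 was the marker called at 48 h, and no marker was called at 24 h. The summed level, on which the brightest marker weighs most, was higher in Nnm cells at 48 h. The part of the markers in the S100A4 result was not tested.

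S100A13, which takes part in the release of FGF1 from cells by a route without a signal peptide, was the member that rose. At 48 h it was 12.63, 12.33 and 12.73 in Nnm cells, against 11.83, 11.68 and 11.77 in control cells. At 24 h it was 12.18, 12.13 and 12.11 in Nnm cells, against 11.86, 11.88 and 11.56 in control cells. Every Nnm array was above every control array at both times, and the 48 h Nnm arrays were above the 24 h Nnm arrays as well. Groups did not overlap, in either direction, for 36.1% of all tested genes at 48 h, 39.8% at 24 h and 12.7% over time in Nnm cells. The means at 48 h were 12.56 ± 0.21 in Nnm and 11.76 ± 0.07 in control cells (SD, n = 3 each), a log2 change of 0.80 (SE 0.13, limma adjusted p = 0.00644), or 1.75-fold. This call held under all 22 alternatives, with adjusted p between 0.000583 and 0.0388. At 24 h the change was 0.38 (SE 0.13) and missed the threshold (limma adjusted p = 0.0596), and it passed with the replicate number as a block (0.036), with a range of 0.0162 to 0.209 over the alternatives. Without both Nnm arrays of replicate 2 the changes were 0.92 at 48 h (adjusted p = 0.00103) and 0.38 at 24 h (0.0384). The Nnm change at 48 h exceeded that at 24 h by 0.43 (SE 0.18), which did not pass over all genes (limma adjusted p = 0.754). A second S100A13 probe set, 213481_at, was below the floor on all arrays (2.23 to 2.59), so the change rests on 202598_at.

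The other tested members changed less. S100A6, also called calcyclin, and S100A10, the partner of annexin A2 that holds its open form without calcium, differed by little. S100A6 (217728_at) lay between 14.60 and 14.85 on all 12 arrays, with a change of -0.05 at 48 h (95% interval -0.25 to 0.15) and -0.07 at 24 h (-0.27 to 0.12). S100A10 (200872_at) lay between 14.46 and 14.92, with changes of -0.06 at 48 h (95% interval -0.30 to 0.18, adjusted p = 0.733) and -0.17 at 24 h (-0.41 to 0.06, adjusted p = 0.259). The S100A10 change at 24 h passed with array weights (-0.27, adjusted p = 0.0255, with a range of 0.0255 to 0.536 over the alternatives). The dimmer probe sets, 228923_at of S100A6 (4.65 to 5.55) and 238909_at of S100A10 (7.09 to 8.41), gave changes of -0.26 and -0.23 at 48 h and of -0.16 and -0.15 at 24 h, and none was called.

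S100A11, which binds annexin A1 and takes part in membrane repair, and S100A16, a widely expressed member, did not pass at either time, and some of their changes passed when replicate numbers were used as a block: those of S100A11 at both times, and that of S100A16 at 24 h. S100A11 was 12.17, 11.94 and 12.35 in Nnm cells, against 12.48, 12.13 and 12.62 in control cells, at 48 h. At 24 h it was 12.60, 12.22 and 12.53 in Nnm cells, against 12.92, 12.58 and 12.91 in control cells. Replicate 2 was the lowest of each of the 4 groups, which overlapped at each time, and the Nnm array was below its control in 6 of 6 pairs, by 0.19 to 0.38. The changes were -0.26 at 48 h (limma adjusted p = 0.325, with the block 0.0386, range over the alternatives 0.0386 to 0.661) and -0.35 at 24 h (0.162, with the block 0.011, range 0.011 to 0.362). With the block, 32.2% of all tested genes were called at 48 h and 38.8% at 24 h. Without both Nnm arrays of replicate 2 the S100A11 changes were -0.15 at 48 h (limma adjusted p = 0.539) and -0.24 at 24 h (0.307). Averaged over the times, the change was -0.30 (SE 0.12, limma adjusted p = 0.0695, with the block 0.00251, range 0.00251 to 0.209), and the block called 52.6% of all genes.

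S100A16 was 11.69, 11.67 and 11.74 in Nnm cells at 24 h, all below 12.14, 11.89 and 12.21 in control cells, beside 39.8% of all tested genes with no overlap. At 48 h it was 11.67, 11.57 and 11.95 in Nnm cells, against 11.83, 11.67 and 11.88 in control cells, and the groups overlapped. The change was -0.38 at 24 h (SE 0.13, limma adjusted p = 0.0574, with the block 0.0106, range over the alternatives 0.0106 to 0.187) and -0.06 at 48 h (adjusted p = 0.769). The 24 h change, on the edge of the threshold, passed when arrays were centred on their medians (-0.40, adjusted p = 0.0441). The difference between the times was 0.32 and did not pass (adjusted p = 0.819). The mean of both times was -0.22 (limma adjusted p = 0.0733, with the block 0.0142, range 0.0142 to 0.165).

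S100A2, a nuclear member of keratinocytes and other epithelia that binds p53, did not pass between Nnm and control cells, with changes of -0.32 at 48 h (95% interval -0.77 to 0.14, limma adjusted p = 0.315) and -0.23 at 24 h (-0.68 to 0.23, 0.455). With 1 array left out, the value at 48 h ran between -0.52 and -0.09. At 24 h its 3 Nnm values lay below the 3 control values all the same, a separation within that background of 39.8%. Its change was with time. In Nnm cells it was 10.49, 9.93 and 10.44 at 48 h, against 11.67, 11.66 and 11.67 at 24 h, and in control cells 10.19, 10.55 and 11.05 at 48 h, against 11.93, 11.93 and 11.81 at 24 h. All 48 h values lay below all 24 h values in both treatments, beside 12.7% of all tested genes with no overlap in Nnm and 26.3% in control cells. The 48 h arrays spread more widely (SD 0.31 in Nnm and 0.43 in control cells) than the 24 h arrays (0.0033 and 0.07). The log2 change at 48 h over 24 h was -1.38 in Nnm cells (SE 0.20, limma adjusted p = 0.0415), or 2.61-fold lower, and -1.29 in control cells (SE 0.20, adjusted p = 0.0484), or 2.45-fold lower. S100A2 was the 1 member of 8 called in each, beside 0.119% of all tested genes in Nnm cells (0.055% fell) and 0.128% in control cells (0.0458% fell). These shares are of the fit without the replicate block. With the block, the limma adjusted p of S100A2 was 0.0176 in Nnm cells, where 2.29% of all tested genes were called. In control cells it was 0.0104, where 8.47% were called.

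**Figure D3:**
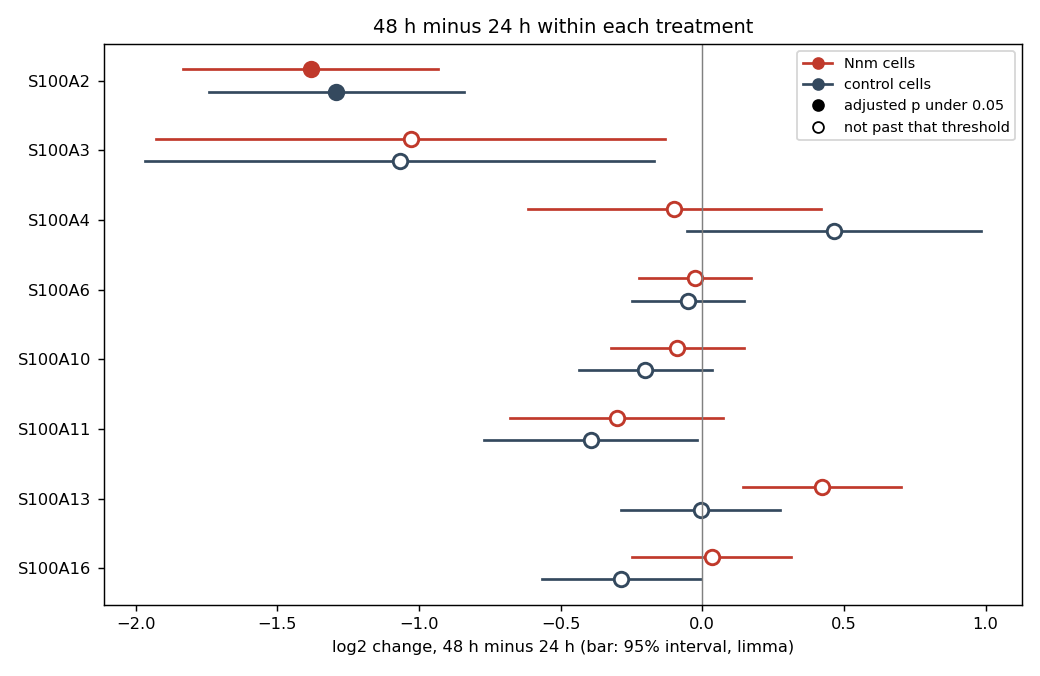
Change in log2 expression, 48 h minus 24 h (x axis), of each tested S100 gene (rows) in Nnm cells and in control cells. Points are limma's estimates over 3 against 3 arrays, bars are 95% intervals, and filled points passed an adjusted p of 0.05, which S100A2 did in both, at -1.38 and -1.29.

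The comparisons over time within Nnm and within control cells share no arrays, though both come from 1 fit with 1 estimate of spread. Without the replicate block, 13 genes were called over time in Nnm cells and 14 in control cells. Of these, 2 were called in both, which is 15.4% of the Nnm calls and 14.3% of the control calls. These are S100A2 and SLC26A2, a sulfate transporter named after its values were seen, which changed by -0.82 in Nnm cells (limma adjusted p = 0.0175) and by -1.07 in control cells (0.00245). The SLC26A2 call in Nnm cells was lost when replicate 1 or 3 of the Nnm arrays of either time, or control 24 h replicate 2, was left out (adjusted p = 0.052 to 0.127), and fitted on the 6 arrays of each comparison alone it had 0.626 in Nnm and 0.0509 in control cells. The S100A2 calls were close to the threshold. They kept an adjusted p under 0.05 in 3 of 12 cases with 1 array left out in Nnm cells, and in 3 of 12 in control cells. In Nnm cells the call was lost without any 1 of Nnm 24 h replicates 1 and 3, the Nnm 48 h arrays, the 24 h controls and control 48 h replicate 2 (adjusted p = 0.0525 to 0.223). In control cells it was lost without Nnm replicate 1 or 3 of either time, any 1 of the 24 h controls, or control 48 h replicate 1 or 2 (0.0671 to 0.244). Without both Nnm arrays of replicate 2 the changes were -1.21 in Nnm (adjusted p = 0.0364) and -1.29 in control cells (0.0286), with 2.26% and 0.578% of all tested genes called in Nnm and in control cells. Fitted on the 6 arrays of each comparison alone, the adjusted p was 0.626 in Nnm and 0.0983 in control cells.

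S100A3 was also lower at 48 h than at 24 h in each treatment with no overlap, by -1.03 in Nnm cells (95% interval -1.93 to -0.13, limma adjusted p = 0.413) and -1.07 in control cells (-1.97 to -0.17, 0.251), and neither passed. S100A13 was higher at 48 h than at 24 h in Nnm cells with no overlap (0.42, 95% interval 0.14 to 0.70, adjusted p = 0.283) and differed by -0.01 in control cells (-0.29 to 0.27, 0.993). S100A4 was higher at 48 h in control cells with no overlap (0.46, adjusted p = 0.374), with -0.10 in Nnm cells (0.92). S100A11 differed by -0.30 in Nnm (adjusted p = 0.55) and -0.39 in control cells (0.297), where it passed with the block (0.023, range over the alternatives 0.023 to 0.76), as did 8.47% of all tested genes. S100A16 and S100A10 were lower at 48 h in control cells with no overlap (-0.29 and -0.20), with changes of 0.03 and -0.09 in Nnm cells. Groups over time did not overlap for 12.7% of all tested genes in Nnm cells and 26.3% in control cells. No member passed for the difference between the Nnm changes at 48 h and at 24 h, and neither did any of the 10907 genes with limma. At an unadjusted p under 0.05, 1 member and 698 genes did, and with the block 2 genes, or 0.0183%, passed, none of them a member.

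The promoters of the S100 genes that fell in these comparisons are shown. A TATA box match is not particular to them, as S100A13, which rose, and S100P have one too. Each window shown is 300 bases from RefSeq (GRCh38.p14), 250 before and 50 after the annotated start, on the minus strand of chromosome 1. The windows lie at chr1:153565795-153566094 for S100A2, the outermost of its 2 annotated starts, at chr1:153549209-153549508 for S100A3 and at chr1:153545757-153546056 for S100A4. Capitals mark matches to the AP-1 motif TGANTCA, the site of FOS and JUN proteins, and to the TATA box TATAAA, searched on both strands:
S100A2: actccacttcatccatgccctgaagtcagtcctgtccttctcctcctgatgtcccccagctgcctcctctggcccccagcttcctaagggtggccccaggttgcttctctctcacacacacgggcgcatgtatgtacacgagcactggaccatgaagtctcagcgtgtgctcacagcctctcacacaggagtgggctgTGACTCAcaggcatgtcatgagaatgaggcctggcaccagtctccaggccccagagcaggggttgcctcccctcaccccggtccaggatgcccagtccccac
S100A3: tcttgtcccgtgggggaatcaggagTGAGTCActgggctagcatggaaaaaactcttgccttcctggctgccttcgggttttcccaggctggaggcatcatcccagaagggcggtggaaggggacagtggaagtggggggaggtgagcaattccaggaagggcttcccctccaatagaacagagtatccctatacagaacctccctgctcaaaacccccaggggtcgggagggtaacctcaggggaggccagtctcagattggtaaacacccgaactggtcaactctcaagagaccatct
S100A4: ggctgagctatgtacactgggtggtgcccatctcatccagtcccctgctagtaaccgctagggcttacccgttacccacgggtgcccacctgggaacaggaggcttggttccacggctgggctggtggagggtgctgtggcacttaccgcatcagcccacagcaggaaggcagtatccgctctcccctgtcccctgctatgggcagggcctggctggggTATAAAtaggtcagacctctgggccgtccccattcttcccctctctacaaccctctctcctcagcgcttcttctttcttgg
The AP-1 match begins 52 bases before the start in S100A2 and 225 bases before it in S100A3, and the TATA box 31 bases before it in S100A4. Windows were found for all 10 genes, 14 in all. The window of the other S100A2 start, not shown, matched none of the motifs searched. AP-1 matches were in 2 of the 14, beside 7.71% of 35116 human promoter windows. TATAAA was in 3 of the 14, beside 11.5%, those of S100A4, of the second S100A13 start and of S100P. The SP1 motif GGGCGG, in 45.0% of all windows, was matched in S100A3, S100A6, S100A10, S100A11, S100A13 and S100A16. The core of the antioxidant response element, TGACNNNGC, in 13.3% of all windows, was matched in S100A13, S100A14 and S100A16. The cAMP response element TGACGTCA, in 1.85% of all windows, was matched in none of the 14. An AP-1 site can also match the antioxidant core, which neither of the AP-1 matches here did, and a match describes letters only.

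Along chromosome 1, S100A6, S100A4, S100A3, S100A2, S100A16 and S100A13 stand in this order with no other tested gene between them. S100A4 and S100A3, which fell with Nnm, are neighbours in that order, and S100A13, which rose, is separated from them by S100A2 and S100A16. S100A1, a member of heart and muscle that is next in the order after S100A13, was 7.62, 7.19 and 7.47 in Nnm cells, against 7.63, 7.31 and 7.34 in control cells, at 48 h. Its change was -0.00087 at 48 h and 0.02 at 24 h, and neither passed. Of the 11 tested genes between and beside the S100 genes, 0 passed with limma at 48 h, beside 13.8% of all tested genes. At 24 h 1 rose and 1 fell, beside 19.4%. An unadjusted limma p under 0.05 at 48 h was found for 2 of the 11, beside 3534 of all 10907 genes. Among the 11 the block was read only for INTS3, MRPL9, TDRKH and ILF2. With it, calls were gained by INTS3 (0.51, adjusted p = 0.0177) and TDRKH (-0.49, 0.0209) at 48 h and by ILF2 at 24 h (-0.31, 0.0299). The block called 32.2% of all tested genes at 48 h and 38.8% at 24 h. The calls at 24 h without the block were INTS3, of the Integrator complex (1.10, limma adjusted p = 0.037), and MRPL9, a mitochondrial ribosomal protein (-0.31, adjusted p = 0.0481). Each call was lost without Nnm 24 h replicate 1 or 3 or any 1 of the 24 h controls, among others (adjusted p up to 0.131 for INTS3 and 0.151 for MRPL9). The median change of the 11 was -0.08 at 48 h and 0.04 at 24 h.

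**Figure D4:**
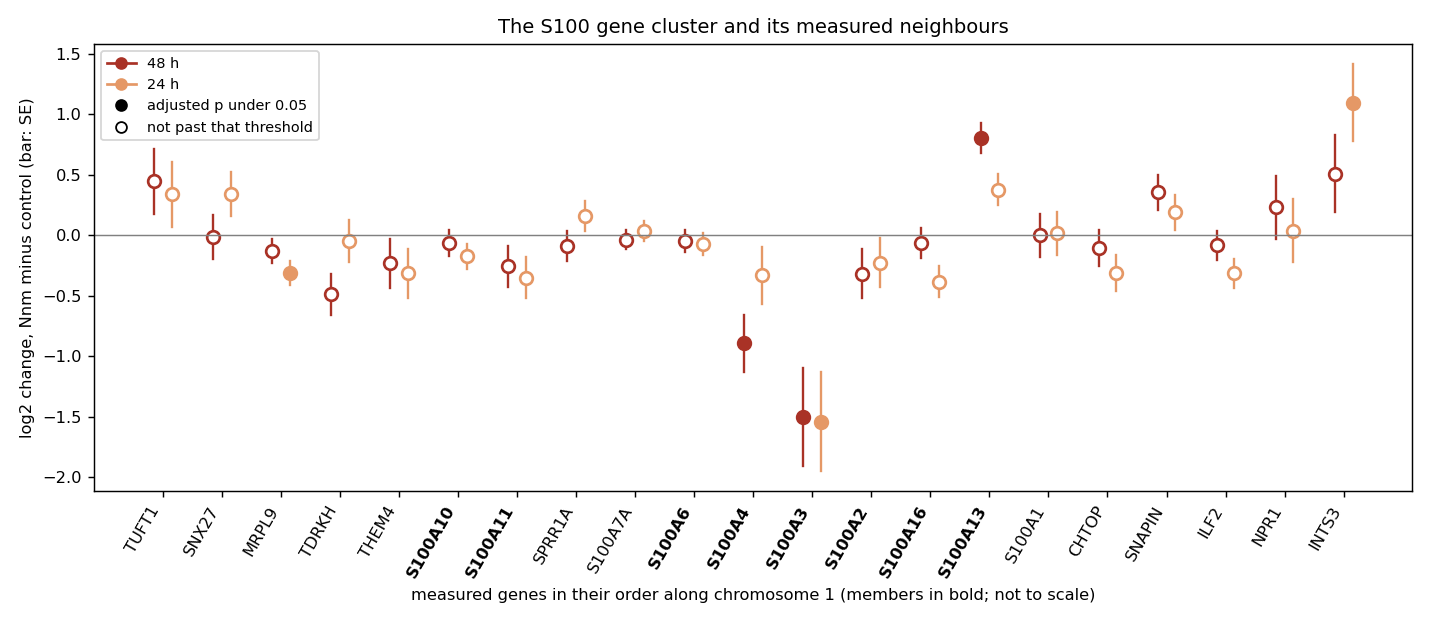
Change in log2 expression, Nnm minus control (y axis), of tested genes in their order along chromosome 1 (x axis, not to scale), with the S100 members in bold, at 48 h and 24 h. Points are limma's estimates, bars are 1 SE, and filled points passed an adjusted p of 0.05: S100A4 and S100A3 lie below 0 side by side, and S100A13 above it, while S100A2 and S100A16 between them did not pass.

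Among other genes of the family and its helpers, 3 of 18 listed were tested. Of these 1 was called at each time, beside 13.8% of all tested genes at 48 h and 19.4% at 24 h. S100PBP, which binds S100P, was the 1 called, and it rose at both times: 8.31, 8.25 and 8.06 in Nnm cells, against 7.53, 7.68 and 7.10 in control cells, at 48 h, and 7.89, 8.02 and 7.97 in Nnm cells, against 7.04, 7.42 and 6.95 in control cells, at 24 h. The log2 change was 0.77 at 48 h (SE 0.17, limma adjusted p = 0.0169) and 0.82 at 24 h (SE 0.17, adjusted p = 0.0117), while S100P itself was below the floor. The S100PBP call was lost at 48 h without Nnm 48 h replicate 1 or control 48 h replicate 1 or 3 (adjusted p = 0.0501 to 0.0725), and at 24 h without control 24 h replicate 3 (0.057). With the 48 h groups fitted alone it was lost as well (limma adjusted p = 0.055). S100A7A lay between 5.07 and 5.21 on all arrays. S100A5, S100A7, S100A8, S100A9, S100A12, S100B, S100G and S100Z were below the floor on all arrays, so S100A8 and S100A9, the pair known from neutrophils, were not detected above background here.

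The genes whose pattern over the 12 arrays was most like that of each called member were found by Pearson's r. S100A2 was most like NDUFAF2 (0.928) and ANXA1 (0.924), S100A3 was most like ARCN1 (0.96) and PSMB2 (0.959), S100A4 was most like HIGD2A (0.934) and C5orf24 (0.932), and S100A13 was most like METTL23 (0.967) and C1orf56 (0.956). Among the members themselves, S100A11 and S100A16 were the most alike (r = 0.848), and S100A3 and S100A13 the most opposed (r = -0.808). These are descriptions over 12 arrays that share groups and replicate numbers.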

How the data were processed

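Total RNA of 12 HK-2 cultures was hybridised as biotin-labelled cRNA to Affymetrix arrays, 1 array each. The deposited log2 values were made by the authors with GCRMA, which corrects background by probe sequence, scales arrays by quantiles and summarises probe sets, per the submitters' processing notes. Its version could not be taken from the sources used here, nor could the set of arrays processed together, and the log base was read from the range of values. Probe sets were named from the platform annotation (41097 with 1 gene, 1801 with several, 11721 not listed and 62 controls of 54675). Gene IDs of 41043 were found in RefSeq (GRCh38.p14), which changed 0 symbols. Probe sets with 1 gene and a log2 above 4 on at least 3 arrays were kept (19832), and each gene was read from the one with the highest mean, giving 10907 genes. limma 3.58.1 in R 4.3.3 fitted the 4 group means over all 12 arrays, with Benjamini-Hochberg adjustment and a threshold of 0.05, and was tested on simulated data.

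Arrays of the same replicate number in other groups had correlated residuals (r = 0.318 to 0.696), while for arrays of different numbers r was -0.587 to 0.119. The numbers were therefore taken to pair the arrays. The main fit does not use this pairing, and the blocked value is printed beside a printed result whose call it changes. Named are all members, up to 4 genes of each list with the smallest p at either time, and the 2 genes most correlated with each called member. The lists were other family genes, partners and receptors, annexins, other EF-hand genes, neighbours along the chromosome, and cell type markers. The members and lists were chosen with earlier results of these data known. Alternatives were other filters, probe set rules, scalings, weights and fits, and leaving out each array. The number of arrays limits the precision.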

Additional observations from a re-analysis of the deposited data

How the results depend on the processing

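The 8 tested members were recomputed under 22 alternatives. Of 1040 recomputed values, 967 kept their side of the threshold, 46 lost a call, 27 gained one and 0 reversed, while 30 changed sign without being called on either side. Of the values of other named genes, 3281 kept their side, 153 lost a call, 70 gained one and 0 reversed. At 48 h, where 3 members passed, 1 did without the filter on dim genes, and 1 to 3 did with 1 array left out. S100A3 also lost its 48 h call with the groups compared fitted alone (limma adjusted p = 0.0963). At 24 h, where 1 passed, 0 did without the filter and 2 with arrays centred on their medians. With the replicate block 4 passed at 24 h, beside 38.8% of all tested genes. Array weights gave 5, and limma's trend and robust options gave 3. Without both Nnm arrays of replicate 2 it was 2, beside 34% of all tested genes, and with 1 array left out 0 to 3. The share of all tested genes called with median centring, array weights or the trend and robust options is not given here. Those counts are therefore not a result about the members. For the mean of both times, where 3 passed, 5 did with median centring and 3 to 5 with 1 array left out (5 without control 24 h replicate 2). With the replicate block 5 passed for that mean, beside 52.6% of all tested genes. Over time in Nnm cells, where 1 passed, 0 did without the filter, 0 with probe sets of a gene averaged, 2 with array weights, 0 with the groups compared fitted alone, and 0 to 1 with 1 array left out. Over time in control cells, where 1 passed, 0 did without the filter, 0 with probe sets averaged and 0 with quantile normalisation. With the groups compared fitted alone 0 passed, and with 1 array left out 0 to 1. The replicate block gave 2 there, beside 8.47% of all tested genes. For the difference between the Nnm changes, 0 passed under every alternative run, and fitting the groups compared alone is the same fit there. Without the filter, S100A3 had an adjusted p of 0.0962 at 48 h and 0.0752 at 24 h, S100A4 one of 0.0789 at 48 h, and S100A2 one of 0.129 over time in Nnm cells and 0.109 in control cells, with more genes tested. Apart from the calls named here and in the results, the cause of a lost or gained call was not tested. The block changed no other call of a member. With 3 arrays a group, the intervals of S100A6 and S100A10 hold for the brighter probe set of each and not for the dimmer one. S100A14 and S100P, below the floor, have no test.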

Other observations

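The binding partners of S100 proteins and the other calcium-binding families were read from the same limma fit. Of 28 partners and receptors, 21 were tested. At 48 h, 1 rose (S100PBP) and 0 fell, and at 24 h 2 rose and 1 fell, beside 13.8% and 19.4% of all tested genes called. An unadjusted limma p under 0.05 at 48 h was found for 4 of the 21, beside 3534 of all 10907 genes. The second rise at 24 h was AHNAK, a large protein that S100A10 and annexin A2 bind (0.52, adjusted p = 0.0299), and the fall was STUB1, the ubiquitin ligase CHIP (-0.57, adjusted p = 0.0125). AHNAK lost its call with the mean of its probe sets (adjusted p = 0.152) and without Nnm 24 h replicate 1 or 3 or any 1 of the 24 h controls (0.0564 to 0.11), and STUB1 without Nnm 24 h replicate 3 or control 24 h replicate 3 (0.055 and 0.0568). KCNK3, a potassium channel that S100A10 binds, passed for the mean of both times (1.39, adjusted p = 0.00813) and at neither time alone (1.45 and 0.0595 at 48 h, 1.34 and 0.0635 at 24 h), though it did at both with the block (0.00417 at 48 h and 0.00428 at 24 h) and without both Nnm arrays of replicate 2 (0.0028 and 0.00355). The median change of the partners was -0.08 at 48 h and -0.07 at 24 h.

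Annexins, which bind membranes in the presence of calcium, were tested for 10 of 12 listed. At each time 1 fell and 0 rose, beside 13.8% of all tested genes called at 48 h and 19.4% at 24 h. With an unadjusted limma p under 0.05 there were 3 annexins at each time. Of all 10907 genes, 3534 had one at 48 h and 3982 at 24 h. The annexin that fell was ANXA3, at -1.67 at 48 h (SE 0.43, limma adjusted p = 0.0303) and -2.13 at 24 h (SE 0.43, adjusted p = 0.0115). Its call was lost without any 1 of Nnm 48 h replicates 1 and 3 and the 48 h controls at 48 h (adjusted p = 0.0525 to 0.114), and without control 24 h replicate 3 at 24 h (0.0566). For the mean of both times, ANXA2, ANXA4 and ANXA5 fell as well (-0.40, -0.33 and -0.32, limma adjusted p = 0.0279, 0.0276 and 0.0145). This makes 4 of 10, beside 37.3% of all tested genes called and 16.9% that fell. ANXA2 and ANXA4 each lost the call without any 1 of 6 arrays, Nnm 24 h replicates 1 and 3 among them (adjusted p up to 0.0685 and 0.0687). ANXA1, the partner of S100A11, did not pass (-0.25 at 48 h and -0.24 at 24 h, adjusted p = 0.296 and 0.274). With the block, the adjusted p of ANXA2 was 0.0157 at 48 h and 0.0486 at 24 h, that of ANXA5 0.0151 and 0.0239, and that of ANXA4 0.0487 at 24 h. The block called 32.2% of all tested genes at 48 h and 38.8% at 24 h, and it was not read for ANXA6, ANXA7, ANXA9, ANXA11 and ANXA13. The median change of the annexins was -0.26 at 48 h and -0.18 at 24 h. ANXA1, ANXA2, ANXA6 and ANXA11 are on both lists, as S100PBP is on that of the partners and of the family.

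Of 50 other EF-hand genes, 39 were tested, and 3 rose and 3 fell at 48 h and 4 rose and 3 fell at 24 h, close to the 13.8% and 19.4% of all tested genes, with medians of -0.14 and -0.16. For the mean of both times 19 of the 39 were called, beside 37.3% of all tested genes. Of these 6 rose and 13 fell, beside 20.4% and 16.9%, and 27 of the 39 changes were below 0. The median for that mean was -0.17, beside 0.02 for all tested genes. MYL9, the regulatory light chain of smooth muscle and nonmuscle myosin, fell each time (-1.78 at 48 h and -1.46 at 24 h, limma adjusted p = 0.00824 and 0.0123), and ACTN1, which crosslinks actin, fell at 24 h (-0.80, adjusted p = 0.0138) and did not pass at 48 h (-0.47, adjusted p = 0.0878, with the block 0.0125). NUCB2, a Golgi protein (0.57 at 48 h and 0.51 at 24 h, adjusted p = 0.018 and 0.0208), and GCA, grancalcin (0.44 and 0.38, adjusted p = 0.0191 and 0.0275), rose at both times. At 24 h, MYL9 lost the call without control 24 h replicate 3 (adjusted p = 0.0601), and so did ACTN1 (0.0646), NUCB2 (0.0898) and GCA (0.104), which also lost it without Nnm 24 h replicate 3 (0.0546, 0.0741 and 0.0992). At 48 h, NUCB2 and GCA lost it without Nnm 48 h replicate 1 or 3 or control 48 h replicate 1 or 3 (0.0548 to 0.0762), and with probe sets averaged NUCB2 was at 0.28 (0.145).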
